A study of Homo sapiens with 2 samples.

Results

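SKI and the core of the TGF-beta SMAD pathway, 10 genes in all, were compared between LN229 cells made to overexpress miR-127-3p and their control. The genes were the ligand TGFB2, the receptors TGFBR1 and TGFBR2, the transducers SMAD2, SMAD3 and SMAD4, the inhibitory SMAD6 and SMAD7, and the corepressors SKI and SKIL. Every probe set that the platform annotation pairs with exactly 1 of these symbols was taken, which gave 38 probe sets of the 41091 that name a single gene, and 10 genes of 19775. LN229 is an established human glioblastoma line. Cells of the first group carried pSUPER.neo-miR-127-3p, a plasmid that expresses the microRNA, and cells of the control group carried pSUPER.neo without it. Both groups were grown in DMEM with serum, which itself holds growth factors, and whether either culture was a single clone or a pool of transfected cells is not given in the sources used here. Each group was measured on 1 Affymetrix array, so there is no replicate, no test between groups and no p-value for any difference below.

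TGF-beta ligands bind TGFBR2, which phosphorylates TGFBR1, and TGFBR1 phosphorylates SMAD2 and SMAD3. These pair with SMAD4 and move to the nucleus, where they act on target genes. SKI and SKIL (SnoN) bind the SMAD complex and recruit histone deacetylase complexes that keep those targets silent, while SMAD6 and SMAD7 block the pathway at the receptors as feedback inhibitors. In glioblastoma TGFB2 was first described as a factor that suppresses T cells, and the pathway is known for its part in migration and in maintaining stem-like cells. SKI is of interest here because earlier work on glioblastoma cells named it as a target of miR-127-3p. MicroRNAs pair through their seed with messenger RNAs, and the usual outcome in animal cells is less protein with a modest loss of the transcript.

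The microRNA in question is shown first because its seed defines what a target site would have to contain. The mature miR-127-3p lies at chr14:100883035-100883056 on the plus strand (GRCh38.p14, sequence from RefSeq). It is 22 bases long, its seed (bases 2 to 8) is in capitals, and a transcript that pairs with the whole seed holds the letters GGAUCCG. The opposite arm of the same hairpin, at chr14:100883001-100883022, has an unrelated seed, and no other mature microRNA name of the RefSeq table shares either seed.
hsa-miR-127-3p: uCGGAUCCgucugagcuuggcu
hsa-miR-127-5p: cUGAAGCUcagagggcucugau
Transcript sequences of SKI and the other members were not used here, so no seed site was searched for.

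The 2 arrays were on a common scale. Median probe set signals, in arbitrary units of fluorescence, were 83.3 with miR-127-3p and 93.9 without, and GAPDH and ACTB had log2 ratios of 0.02 and 0.05. A log2 ratio is log2(signal + 1) with miR-127-3p minus that in the control, less the median over all genes of 0.01, and its antilog is the fold, so folds of dim probe sets are understated. Probe sets passed a signal filter if the average of their log2 values exceeded the median over non-control sets. Of the 38 member probe sets 26 passed and 12 did not, and each of the 10 genes kept at least 1. The 2 brightest probe sets above the filter of the same gene differed with an SD of 0.41 per probe set over 5974 pairs. Each gene gave 1 pair, and its further sets did not enter. When the pairs were split in 4 by the signal of their dimmer probe set, that SD was 0.60 in the dimmest part and 0.23 in the brightest, and it holds no variation between cultures.

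The cultures also differed in cell type markers, and every value that follows comes from the same 2 arrays. Of the 12 glial and glioma markers 9 passed the filter, among them VIM, the intermediate filament vimentin, at 48866 with miR-127-3p against 45584 in the control, and CD44 at 22904 and 16408. GFAP, the astrocyte filament, was dim on both arrays, with 14.9 and 34.2, as were AQP4 and CHI3L1. Of all 11985 genes above the filter 5.06% were higher and 8.67% lower by 2-fold at their brightest probe set. In the glial list 2 genes were higher and 2 lower by 2-fold, which are named after their values were seen. SLC1A3, the astrocyte glutamate transporter, was at least 28.1-fold higher, with 2689 against 73.9 in the control. EGFR gave 2472 and 618 at its brightest set, but its 5 sets above the filter had log2 ratios from 0.01 to 1.99. The neural stem cell genes SOX2 and NES were lower, with 1656 and 893 in miR-127-3p cells against 3893 and 1804 in the control. In that list all signals summed to 128340 with miR-127-3p against 114669 in the control. Of 11 fibroblast and mesenchymal markers 7 passed, 1 higher and 1 lower by 2-fold, with sums of 17044 and 14738. Of 17 epithelial markers with a probe set of their own, 8 passed the filter. In miR-127-3p cells 6 of the 8 were lower by 2-fold or more and none higher. Of the 6, KRT19, EPCAM, ESRP1 and VIL1 were under the array median of 83.3 with miR-127-3p. They passed only through their control signals, so their being lower followed from the filter. KRT8 and KRT18 were above the median on both arrays. Signals of the 17 markers, summed over all probe sets, were 8232 with miR-127-3p against 91744 in the control. On the miR-127-3p array KRT19, ESRP1 and CDH1, picked as defining markers, gave 5.64, 6.45 and 7.05, against 12674, 1136 and 775 in the control. The CDH1 set did not pass the filter. KRT18 gave 6906 and 44863, and KRT7 gave 326 and 538. KRT5 and GRHL2 were brighter with miR-127-3p, at 88.3 and 39.8 against 4.52 and 16.1 in the control. Both were below the filter and were named after their values were seen. Leukocyte markers were low, with PTPRC at 46.2 and 23.9, except HLA-DRA at 17304 and 28621. The part of these markers in the values of SKI and the SMAD genes was not tested, and in whole cultures fewer cells of a type and less RNA per cell cannot be told apart. The labels give both cultures as LN229, but whether they held the same cells apart from the plasmid was not tested, so each ratio is a difference between these 2 cultures.

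Across the 10 genes, the receptor TGFBR1 and the ligand TGFB2 were higher with miR-127-3p and the inhibitor SMAD6 was lower, while SKI gave different answers at different probe sets. Of the 26 probe sets above the filter 5 were at least 2-fold higher, belonging to TGFBR1, TGFB2 and SMAD3, and 2 were at least 2-fold lower, belonging to SKI and SMAD6. The shares, 19.2% higher and 7.69% lower, stand beside 5.28% and 8.08% of all 22459 probe sets above the filter. The SMAD3 set, 205397_x_at, is counted by its measured ratio, but its control signal was under the array median and its lower limit was 1.81-fold. With signals floored at each array's median its log2 ratio was 0.86, and the count of higher sets was 4, from TGFBR1 and TGFB2 alone. With a pseudocount of 16 or 32 the count was 3, from TGFBR1 and SMAD3, and no TGFB2 set passed. Probe sets of 1 gene measure the same transcripts and are not independent counts. At the probe set chosen for each gene, the one with the highest mean, only TGFBR1 and SMAD6 passed 2-fold, and the median of the 10 genes was close to 0. Ratios were above 0 at 19 of the 26 probe sets and below 0 at 7, with a median of 0.34 against 0.0012 for all probe sets above the filter.

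**Figure D1:**
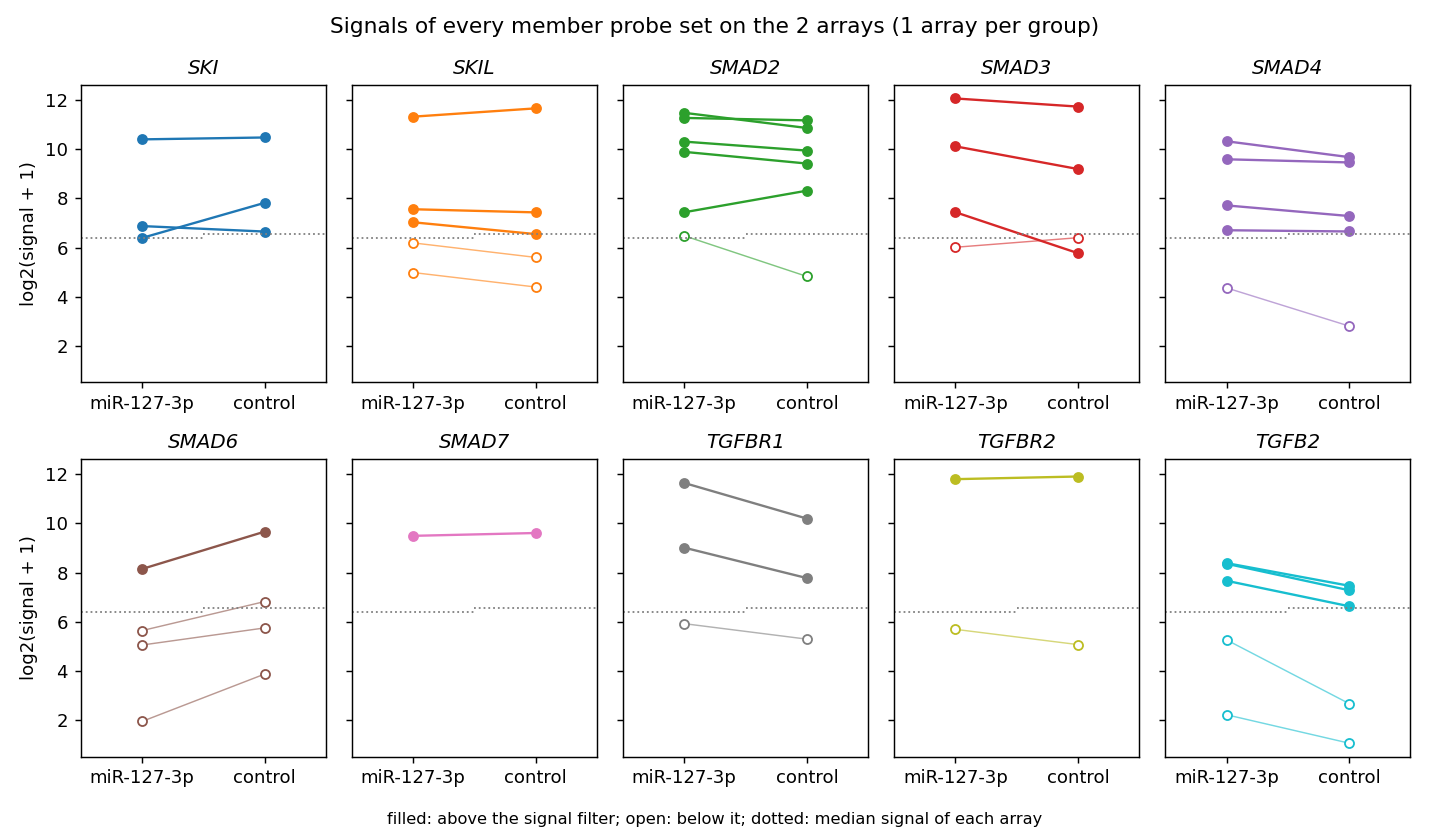
Log2(signal + 1) of every member probe set on the miR-127-3p array (left in each panel) and the control array (right), with a line joining the values of 1 probe set. Filled points passed the signal filter and open points did not, and the dotted lines mark each array's median signal, so steep lines among filled points are those of TGFBR1, TGFB2, SMAD6, the dimmest SMAD3 set and 1 set of SKI.

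SKI, the proto-oncogene that gives the family its name, had 3 probe sets, and they disagreed. The probe set 229265_at read 1344 with miR-127-3p against 1417 in the control, a log2 ratio of -0.09. These values are nearly equal, and the difference is well inside the probe set SD. The probe set 204270_at gave 82.9 with miR-127-3p against 224 in the control, a log2 ratio of -1.44. With miR-127-3p that signal was just under the median of its array, so the difference is stated as at least 2.69-fold lower. At 213755_s_at the signals were 116 and 99.5 and the log2 ratio was 0.21, on the other side of 0. Only 1 of 3 measures of SKI thus showed less transcript with the microRNA by more than 2-fold. The suffix _s_at marks probe sets whose probes match more than 1 transcript, and the other 2 sets of SKI carry no such suffix.

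The disagreement within SKI was wider than in most genes with as many probe sets. Its 3 ratios spanned 1.65 log2 units, and 60 of the 1586 genes with 3 probe sets above the filter (3.78%) spanned as much or more, the median span being 0.55. In 45.5% of those genes probe sets lay on both sides of 0. The particular pattern of SKI, with the brightest probe set within 2-fold and another at least 2-fold lower, was shared by 117 of the 1586 genes (7.38%). Dim probe sets differed by 2-fold more often. The set 204270_at lies among the 5615 dimmest of the probe sets above the filter, with mean signals up to 212, of which 15.1% were at least 2-fold lower, while 3.49% of the 5615 brightest were. Averaging the 3 sets gives SKI a log2 ratio of -0.44, which stays within 0.41 of the value at the brightest set, and their median is the -0.09 of 229265_at.

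**Figure D2:**
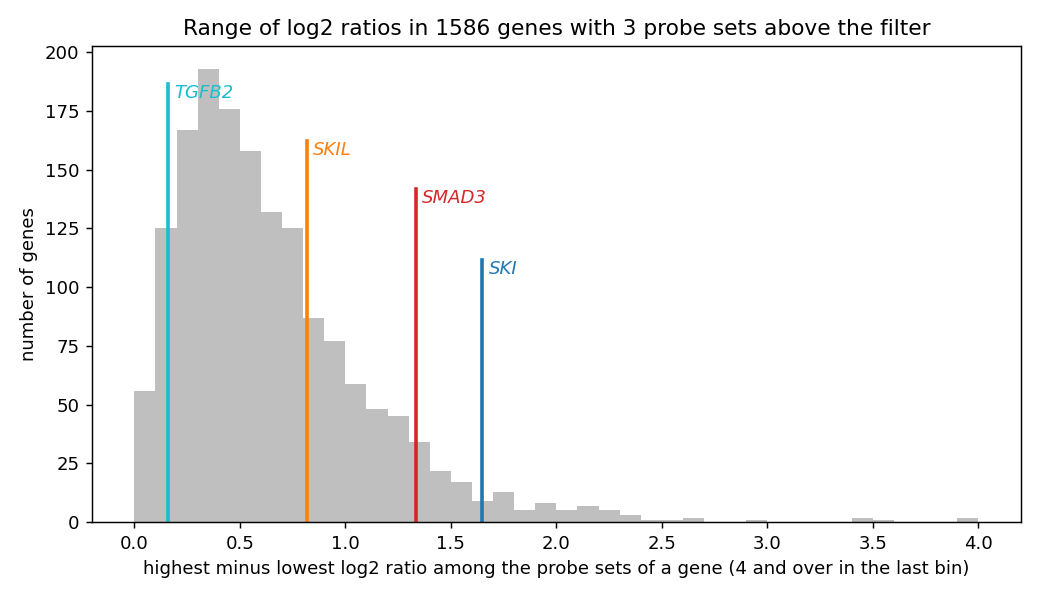
Number of genes (y axis) by the highest minus the lowest log2 ratio among their probe sets (x axis, log2 units), for the 1586 genes with 3 probe sets above the filter. Vertical lines mark the 4 members with 3 such probe sets: TGFB2 at 0.16, SKIL at 0.82, SMAD3 at 1.33 and SKI at 1.65, far into the right-hand tail.

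SKIL encodes SnoN, the closest relative of SKI, and is itself induced by TGF-beta as a feedback repressor. Its brightest probe set, 225227_at, gave 2547 with miR-127-3p against 3217 in the control, or -0.35 on the log2 scale. Other sets above the filter leaned the opposite way, 217591_at with 187 and 171 (0.12) and 206675_s_at with 129 and 92.6 (0.47, or at least 1.36-fold higher, since the control signal is under its array median). No set passed 2-fold in either direction. The remaining 215889_at and 232379_at were below the median on both arrays, at 72.1 and 30.7 with miR-127-3p against 47.6 and 20.1 in the control, and get no fold. The sign for SKIL depends on the probe set: the mean over its sets above the filter was 0.08 and their median 0.12, in place of -0.35.

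The receptor-regulated SMADs carry the signal from the receptor. SMAD2 had 5 probe sets above the filter, and 4 of them were slightly higher with miR-127-3p. The set 203076_s_at gave 2458 and 2294 (log2 ratio 0.09). Next, 203075_at gave 2837 with miR-127-3p against 1851 in the control (0.60). Both of these, and 226563_at and 203077_s_at at 0.35 and 0.46, lie inside 2-fold. The exception was 235598_at, at 172 with miR-127-3p against 317 in the control, a log2 ratio of -0.89. Its direction is opposite to the other sets of the gene. The span of 1.49 for SMAD2 was reached by 31 of 263 genes with 5 probe sets (11.8%). A sixth set, 239271_at, was below the filter with 88.3 and 27.4.

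SMAD3, the partner that binds DNA directly, was above 0 at all 3 probe sets over the filter, by unequal amounts. Its brightest set, 218284_at, gave 4251 with miR-127-3p against 3381 in the control (log2 ratio 0.32), and 205398_s_at gave 1105 and 582 (0.91). The set 205397_x_at gave 172 with miR-127-3p against 53.7 in the control (1.65). That control signal is under the array median, so the difference is given as at least 1.81-fold higher, short of 2-fold, and the suffix _x_at marks probes that can bind unrelated transcripts. Below the filter 205396_at leaned the other way, with 63.6 and 83.6. Direction therefore agreed at the sets above the filter, but the size for SMAD3 ran from 1.25-fold to 1.88-fold at the sets bright on both arrays.

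SMAD4 is the common partner that SMAD2 and SMAD3 need. It was on the higher side at all 5 probe sets, none of the 4 above the filter passing 2-fold. The set 202527_s_at gave 1274 with miR-127-3p against 815 in the control (0.63), and 235725_at gave 767 and 702 (0.12). Further, 1565703_at gave 209 and 155 (0.42) and 202526_at gave 103 and 99.8 (0.04). These 4 values spread over 0.59 log2 units, which is close to what other genes show, since 61.7% of 661 genes with 4 probe sets spread as widely. The last set, 1565702_at, was dim on both arrays with 19.6 and 6.03.

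Of the inhibitory SMADs, SMAD6 was lower with miR-127-3p and SMAD7 was nearly the same. SMAD6 acts mainly on the BMP branch of the family and SMAD7 on the TGF-beta branch. The SMAD6 set 207069_s_at gave 282 with miR-127-3p against 809 in the control, a log2 ratio of -1.53 or 2.88-fold lower. Its 3 other sets, all below the filter, were dimmer with miR-127-3p too. They gave 49.0, 32.3 and 2.88 on that array, against 112, 53.0 and 13.7 in the control. All 4 sets thus lay on the same side, but only 1 was bright enough on both arrays to give a fold. Among the 5615 probe sets with mean signals from 212 to 525, which include 207069_s_at, 9.10% were at least 2-fold lower. The single probe set of SMAD7, 204790_at, gave 719 with miR-127-3p against 779 in the control (-0.13).

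Promoter windows of the members were read for SMAD motifs because SMAD6 and SMAD7 are feedback targets of SMADs. The RefSeq windows (GRCh38.p14) run from 250 bases before to 50 after each annotated start, and 9 members had at least 1 window, all but SKI. The palindrome GTCTAGAC, the classical SMAD binding element, which reads the same on both strands, was found in the SMAD6 window and in no window of the other 8. Of all 35116 windows 71 (0.202%) held it. The shorter element GTCTG, searched on both strands (as CAGAC on the other) and not contained in the palindrome, was found in windows of SKIL, SMAD3, SMAD7, TGFBR1 and TGFB2, but 45.3% of all windows hold it. The AP-1 motif TGACTCA occurred in windows of SMAD3 and TGFBR2 (4.95% of all windows, both strands). The cyclic AMP element TGACGTCA occurred in the window of SKIL (1.85%). A gene is listed if any of its windows held the motif, while the shares are per window. TGFBR1 had 8 windows, SMAD3 5, SMAD7 3 and TGFBR2 2, against 1 each for SKIL and TGFB2. The SMAD6 window is printed because it holds the palindrome, and the TGFB2 window as one with the shorter element. The single window of SMAD4 and the 2 windows of SMAD2 held none of the 4 motifs. SMAD6 is at chr15:66701986-66702285 and TGFB2 at chr1:218345086-218345385, both on the plus strand, and capitals mark the palindrome in SMAD6, which begins 12 bases before the annotated start, and the shorter element in TGFB2.
SMAD6: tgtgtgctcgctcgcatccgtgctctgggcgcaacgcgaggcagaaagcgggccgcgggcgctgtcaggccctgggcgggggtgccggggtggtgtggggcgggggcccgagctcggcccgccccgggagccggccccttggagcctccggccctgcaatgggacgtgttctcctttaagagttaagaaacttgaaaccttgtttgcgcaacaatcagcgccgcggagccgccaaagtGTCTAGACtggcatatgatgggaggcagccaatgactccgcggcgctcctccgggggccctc
TGFB2: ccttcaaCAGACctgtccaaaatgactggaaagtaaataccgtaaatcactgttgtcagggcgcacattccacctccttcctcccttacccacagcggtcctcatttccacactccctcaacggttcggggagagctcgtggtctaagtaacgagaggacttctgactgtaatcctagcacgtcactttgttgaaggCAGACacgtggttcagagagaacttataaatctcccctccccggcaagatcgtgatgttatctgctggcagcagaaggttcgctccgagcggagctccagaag
The windows differ in base composition, with 68.0% G and C in SMAD6 and 51.7% in TGFB2. A match is a description of the letters only, and the arrays measured no binding.

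TGFBR1, the type I receptor kinase (ALK5), was higher with miR-127-3p by more than the spread between probe sets. The set 224793_s_at gave 3188 with miR-127-3p against 1169 in the control, a log2 ratio of 1.43 or 2.70-fold higher. At 236561_at the signals were 516 and 218, a log2 ratio of 1.22 or 2.34-fold higher. These sets differ by 0.21 and both signals of each are above the array medians. Among the 5615 brightest probe sets, which include 224793_s_at, 2.67% were at least 2-fold higher. The third set of TGFBR1, 206943_at, was dim on both arrays, with 59.9 and 38.4. TGFBR2, the type II receptor that starts the relay, did not share the difference: 208944_at gave 3548 with miR-127-3p against 3822 in the control (-0.12), and its other set, 207334_s_at, was dim with 50.9 and 32.8. No test of the difference between the 2 receptors was possible.

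TGFB2, the only ligand among the members, had the narrowest span among the members with 2 or more probe sets above the filter. The set 228121_at gave 333 with miR-127-3p against 176 in the control (log2 ratio 0.91), 209909_s_at gave 328 and 155 (1.07), and 220407_s_at gave 202 and 98.3 (1.02). In folds these are 1.88, 2.09 and 2.03, so the gene sits at the 2-fold limit and its count of probe sets past it changes with small shifts. The span of 0.16 was reached or passed by 91.9% of the 1586 genes with 3 probe sets. The 2 sets below the filter were also brighter with miR-127-3p, 220406_at with 37.6 and 5.41 and 209908_s_at with 3.69 and 1.11, but on both arrays these are dim values.

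**Figure D3:**
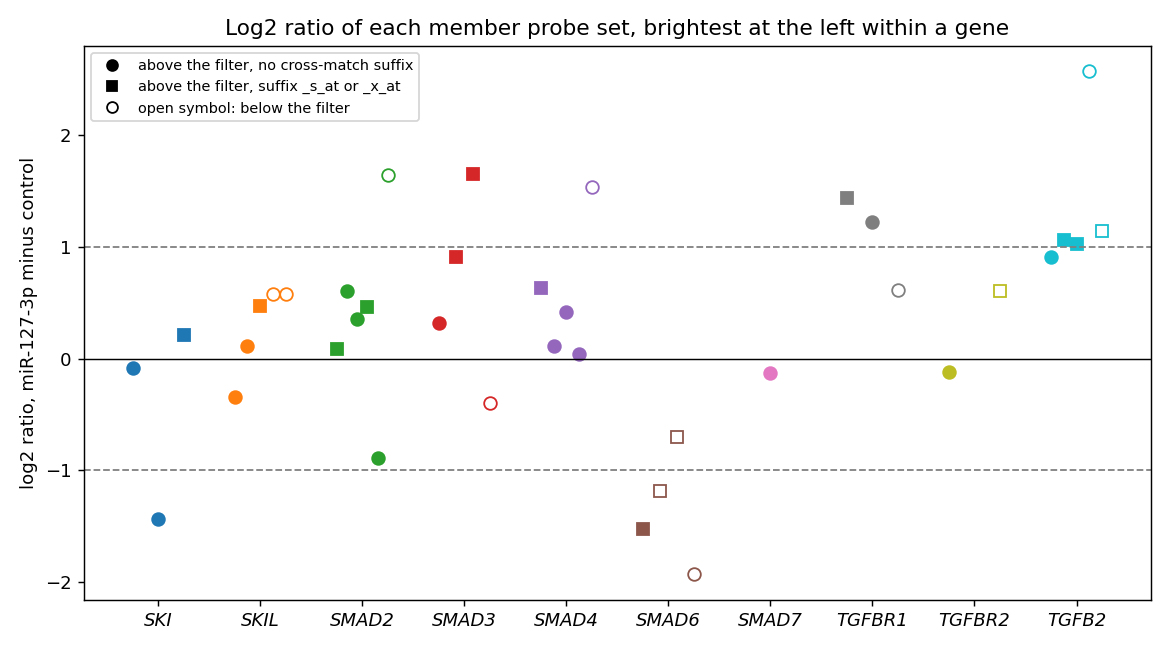
Log2 ratio (y axis, miR-127-3p minus control) of each of the 38 member probe sets by gene, with circles for sets without and squares for sets with a cross-match suffix, open where the set was below the signal filter. Dashed lines mark 2-fold. Among filled points, those of TGFBR1 lie above the upper line, those of TGFB2 near it, and that of SMAD6 below the lower one. The highest filled point is 205397_x_at of SMAD3 at 1.65, and the points of SKI run from -1.44 to 0.21.

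**Figure D4:**
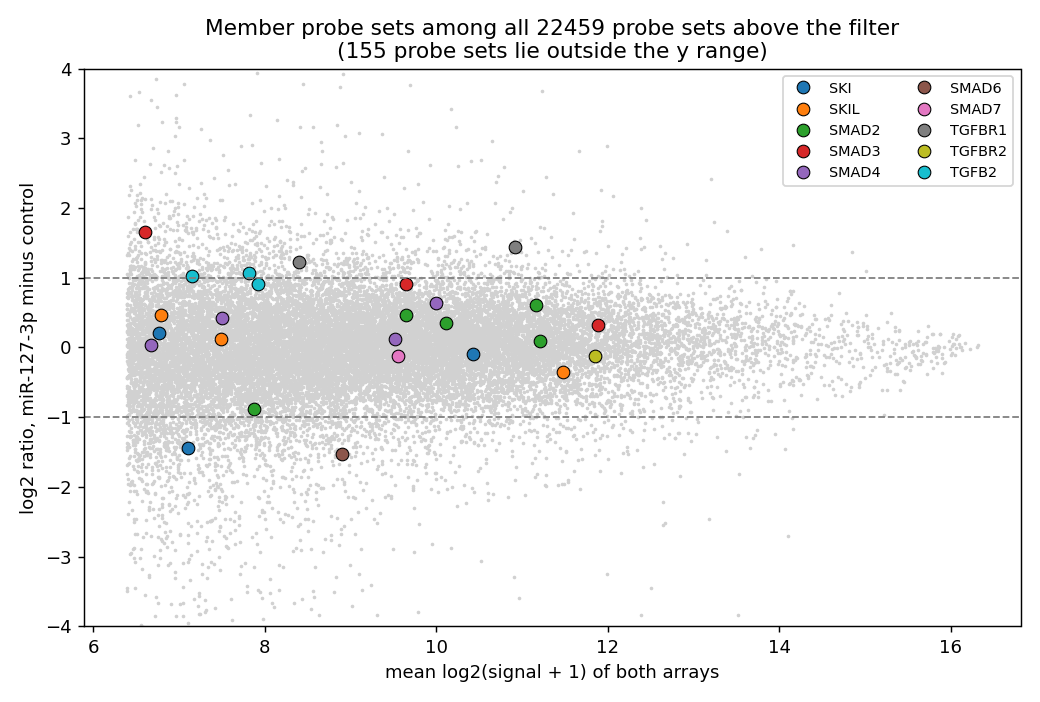
Log2 ratio (y axis, miR-127-3p minus control) against the mean log2(signal + 1) of both arrays (x axis) for 22459 probe sets above the filter in grey, with member probe sets coloured by gene. The grey cloud widens to the left, where the low SKI set and the high SMAD3 set lie, while the upper TGFBR1 point stands out at a bright signal. 155 grey points fall outside the y range.

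Genes around the core were read from lists to set the members in their pathway, each gene at its brightest probe set above the filter. For comparison, 8.67% of all 11985 such genes were at least 2-fold lower and 5.06% at least 2-fold higher, with a median of 0. Of 15 ligands, latency proteins and accessory receptors 2 were higher and none lower by 2-fold, with a median of 0.26. ENG, the accessory receptor endoglin, gave 853 with miR-127-3p against 365 in the control (1.21). DCN, the proteoglycan decorin, which binds TGF-beta, gave 1817 and 810 (1.15), with 4 probe sets between 0.10 and 1.16. On the lower side TGFBR3, the co-receptor betaglycan, was at -0.71 and LTBP3, a latent TGF-beta binding protein, at -0.51. Of the SMADs of the BMP branch, SMAD1 gave 644 with miR-127-3p against 1254 in the control (-0.97, and -1.10 at a second set), SMAD5 was at -0.05 and SMAD9 was below the filter.

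At their brightest probe sets all 19 adaptors, ubiquitin ligases and phosphatases of SMADs with values stayed within 2-fold, with a median of 0.17. Other sets did not always do so, and the 5 sets of the phosphatase PPM1A ran from -0.40 to 1.13. SMURF1, a ligase that marks SMADs and receptors for degradation, gave 1385 with miR-127-3p against 749 in the control (0.87), but its 4 probe sets ran from -0.03 to 1.91. Its relative SMURF2 was at 0.54, with 4 sets between -0.36 and 0.54. PMEPA1, a SMAD-sequestering membrane protein that TGF-beta induces, gave 11831 and 19932 (-0.76), and TRIM33 was at -0.37. Of 16 partners of SKI and the SMADs in repression and activation 2 were higher by 2-fold and none lower at the brightest set. Their median was -0.03. Among the rest, sets other than the brightest passed 2-fold in EP300 (-1.20) and CREBBP (1.21). DACH1, a relative of SKI with the same kind of DNA-binding domain, gave 307 with miR-127-3p against 97.5 in the control (1.63, and 2.10 at its second set). RUNX2, a SMAD-binding transcription factor, gave 2668 and 1271 (1.06), with 3 sets between 0.62 and 1.63. The corepressor CTBP2 was at -0.74 with all 5 sets below 0, and the acetyltransferase KAT2B at -0.72.

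Textbook target genes of TGF-beta and SMADs differed in both directions. Of 44 genes listed 42 had a probe set of their own and 35 passed the filter. Of the 35, 6 were at least 2-fold lower and 5 at least 2-fold higher (17.1% and 14.3%), beside 8.67% and 5.06% of all genes. The list median was -0.28, and it ran from -0.34 to -0.21 under 9 other settings of filter, scaling and pseudocount on the same 2 arrays. The list mixes genes that TGF-beta induces with genes it represses, so this median is no measure of pathway activity. SKIL, SMAD7, PMEPA1 and both SMURF genes, given above, also belong to this list. The lowest was MYC, which TGF-beta represses in epithelial cells, at 578 with miR-127-3p against 6931 in the control (-3.59). BAMBI, a decoy receptor that dampens the pathway, gave 2967 and 13761 (-2.22), COL1A1 was at -1.95 with other sets up to -0.04, and BHLHE40 was at -1.46 with another set at -0.31. The rest past 2-fold, named after their values were seen, were NEDD9 at -1.15, with another set at -1.40, and FOS at -1.06.

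On the higher side of the target list, POSTN, periostin, gave 211 with miR-127-3p against 40.2 in the control, which makes it at least 2.21-fold higher. CDKN1A, a cell cycle inhibitor, gave 4535 and 945 (2.25), THBS1, which activates latent TGF-beta, gave 10549 and 2933 (1.83), and IL11 gave 584 and 188 (1.62). The fifth, ACTA2, was named after its value was seen, with 1543 and 588 (1.38). Many targets that respond in most cell types were within 2-fold, and these too were picked after their values were seen: CCN2 at 0.45, TGFBI at -0.12, FN1 at -0.15 and JUNB at 0.17. MYC, CDKN1A and several others answer to further pathways, and the epithelial marker signals of 8232 against 91744 move along the same arrays. Their part in the target values was not tested.

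**Figure D5:**
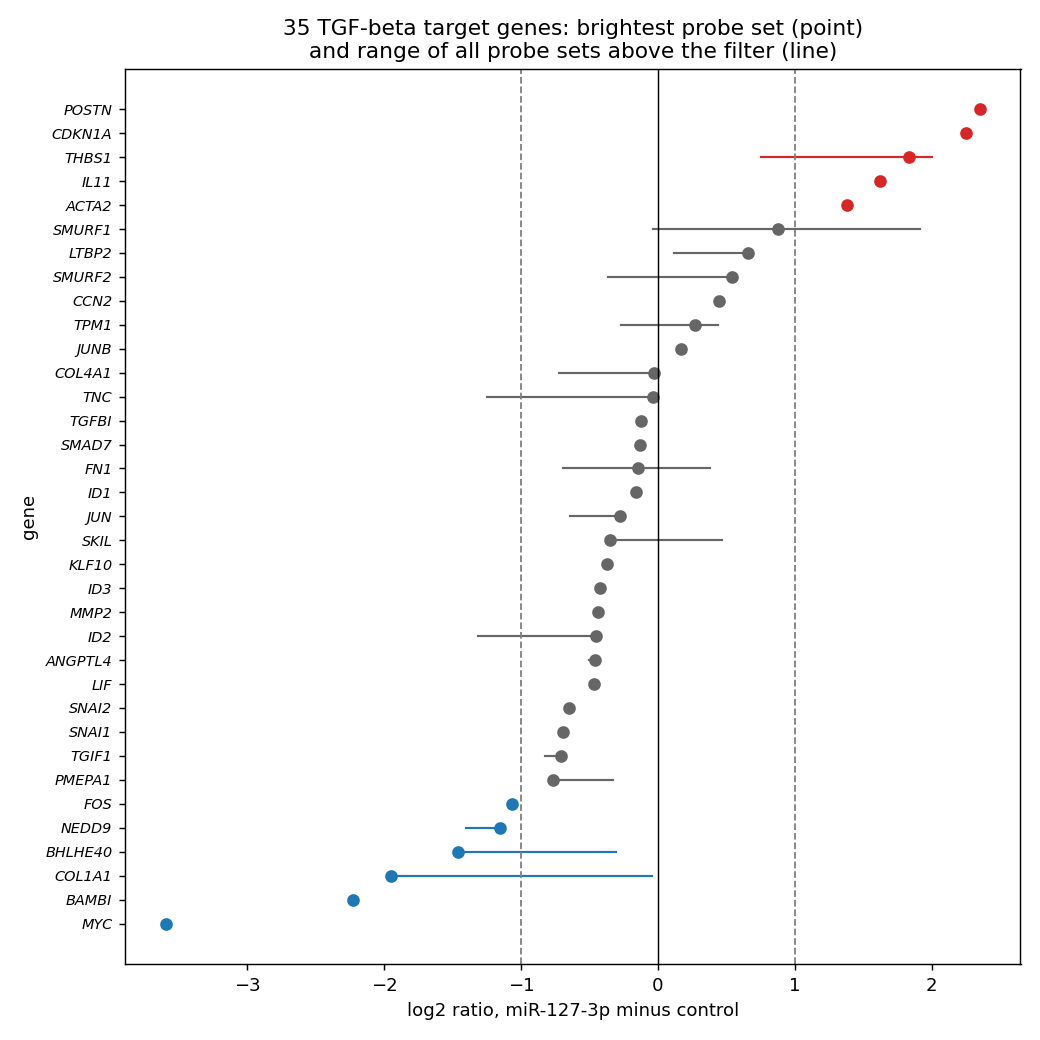
Log2 ratio (x axis, miR-127-3p minus control) of the 35 TGF-beta target genes above the filter, ordered by value, with a point for the brightest probe set and a line for the range of all probe sets above the filter. Blue genes are at least 2-fold lower (6), red genes at least 2-fold higher (5), and 24 in grey lie within 2-fold.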

How the data were processed

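The authors deposited 1 linear signal intensity per probe set and array, made from total RNA labelled with biotin by an Affymetrix 3′ kit, per the labels' protocols. How the authors summarised and scaled probes is not given in the sources used here. The 2% trimmed mean signal was 500.1 on both arrays. The platform annotation paired 41091 of 54613 non-control probe sets with 1 symbol, 1801 with several (left out) and left 11721 unnamed here, and all 10 members matched RefSeq by Entrez identifier. Signals became log2(signal + 1) and passed above a mean of 83.0. Where the dimmer array was below its own median signal, the fold is a lower limit against that median, which is no detection call. With 1 array per group the number of arrays limits the precision, and a fixed 2-fold rule replaced a test. The members, lists and rules were chosen with earlier results of these data known. Named genes were all members, up to 4 per direction past 2-fold of each list (otherwise the 2 most extreme), and the brightest or defining markers. The alternatives were other thresholds, filters, scalings, pseudocounts and probe set choices. The steps were tested on simulated data with the same noise at every signal. Known changes were put only into probe sets bright in the control, so changes in dim sets such as 204270_at were not simulated. Python 3.11.15, numpy 2.4.6, pandas 2.3.3, statsmodels 0.14.6 (loess span 0.3) and matplotlib 3.10.9 were used.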

Additional observations from a re-analysis of the deposited data

How the results depend on the processing

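No paired analysis was possible because each group had 1 array. The count of member probe sets at least 2-fold higher, 5 as reported, became 9 at 1.5-fold or with no filter, 3 with a pseudocount of 16 or 32, and 1 at 3-fold, with the filter at the 75th percentile or without cross-match suffixes. The count at least 2-fold lower, 2 as reported, became 4 with no filter, 1 with the filter at the 75th percentile or without suffixes, and 0 at 3-fold. Target genes at least 2-fold lower, 6 as reported, became 10 at 1.5-fold and 3 at 3-fold or without suffixes. Their count was 9 of 42 with no filter and 8 of 37 where 1 array above its median sufficed. It was 4 with the filter at the 75th percentile or with the mean of probe sets. Target genes at least 2-fold higher, 5 as reported, became 3 with the filter at the 75th percentile or without suffixes. Their count was 7 at 1.5-fold, 6 with no filter and 4 at 3-fold. Fewer sets pass with the stricter filter (14) or without suffixes (15) by construction, and other causes were not tested. No scaling moved any of the 38 log2 ratios by more than 0.41, and no member probe set above the filter that was past 2-fold changed sign under any setting. With a floor at each array's median, 4 sets below the filter that were past 2-fold before it had ratios below 0, namely -0.10 for 239271_at of SMAD2 and -0.18 for 1565702_at of SMAD4, 220406_at and 209908_s_at of TGFB2, since the floor is higher on the control array. Over the 6 settings of scaling, pseudocount and floor, 204270_at of SKI ranged from -1.43 to -1.17, 207069_s_at of SMAD6 from -1.53 to -1.43, 224793_s_at of TGFBR1 from 1.40 to 1.45 and 205397_x_at of SMAD3 from 0.86 to 1.82. Chosen after seeing the data, the mean of the sets above the filter gave 0.96 for SMAD3 in place of 0.32 and 0.08 for SKIL in place of -0.35.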
